A study of Caenorhabditis elegans with 24 samples.

Results

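The insulin-like peptide genes of *Caenorhabditis elegans* were taken as every gene of the count table whose WBcel235 name starts with *ins-* or is *daf-28*. This gave 39 members of 46926 genes. They were followed in poly(A) RNA of whole wild-type N2 worms that were fed OP50 bacteria at 20 °C and collected after 16 hours of hypoxia (0.1% oxygen) or of normoxia (room air), both begun at the L4 larval stage. The series held 8 groups of 3 libraries, 1 hypoxia and 1 normoxia group at each of 4 successive exposures, and 24 libraries in all. Exposure 1 was that of the first generation, and each later hypoxia group descended from worms that had been exposed in the generations before. The comparison asks whether the transcript level of each peptide gene differed after hypoxia, and whether that difference itself differed from one generational exposure to the next. The groups of different exposures were also different generations and cultures, and exposure number, generation and culture cannot be told apart.

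Insulin-like peptides are small secreted hormones, made mainly in neurons and the intestine, that bind the insulin receptor DAF-2. Agonists activate the receptor, and a chain of kinases (PI3K, PDK-1 and AKT) then keeps the transcription factor DAF-16/FOXO out of the nucleus, while antagonists lower the activity of the receptor. The pathway is known for its control of dauer formation, larval arrest, reproduction, stress resistance and life span. Like other neuropeptides, the hormones are cut from precursors and released from dense-core vesicles.

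Totals of reads on genes ran from 26862487 to 46228496 per library (median 33517710), of which the 22 ribosomal RNA genes took between 0.4314 and 17.45%. Levels are given as CPM (counts scaled to a common library size by TMM over all 24 libraries) for replicates 1, 2 and 3 in that order, and as mean ± SD of n = 3 libraries. Within an exposure, hypoxia was compared with normoxia by edgeR's quasi-likelihood test over all genes with 350 or more counts in its 6 libraries together, and a gene was called higher or lower in hypoxia at a Benjamini-Hochberg adjusted p under 0.05. Log2 fold changes (hypoxia over normoxia) carry their standard error (SE) and come from the fit of the exposure's own 6 libraries, so they can depart slightly from the ratio of mean CPM values. The samples were whole worms, in which fewer cells of a type and less RNA per cell cannot be told apart. Yolk protein genes of the adult intestine (6 *vit* genes) summed to at least 18400 CPM in every library, although the labels give the stage as L4.

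Insulin-like peptide transcripts were scarce, and most of the family could not be judged at this minimum. Of the 39 members, 17 reached 350 reads in at least 1 exposure and 9 in all 4 (*daf-28*, *ins-1*, *ins-4*, *ins-10*, *ins-17*, *ins-27*, *ins-33*, *ins-34* and *ins-37*). In at least 1 but not every exposure, 8 more reached it (*ins-2*, *ins-3*, *ins-6*, *ins-7*, *ins-18*, *ins-28*, *ins-30* and *ins-35*). The other 22 never did. Among these, 12 had at least 60 reads in at least 1 exposure (*ins-5*, *ins-9*, *ins-11*, *ins-13*, *ins-19*, *ins-20*, *ins-22*, *ins-23*, *ins-24*, *ins-26*, *ins-29* and *ins-31*), and they are described further on under that lower minimum. The last 10 had under 60 reads in every exposure (*ins-8*, *ins-12*, *ins-14*, *ins-15*, *ins-16*, *ins-21*, *ins-25*, *ins-32*, *ins-36* and *ins-39*), from 11 reads over all 24 libraries for *ins-8* to 188 for *ins-12*, and were tested only in the fits without a minimum. The minimum is a sum over both conditions, so that a member with reads in 1 condition alone can pass it: 498 of the 533 reads of *ins-2* in exposure 2 came from normoxia.

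**Figure D1:**
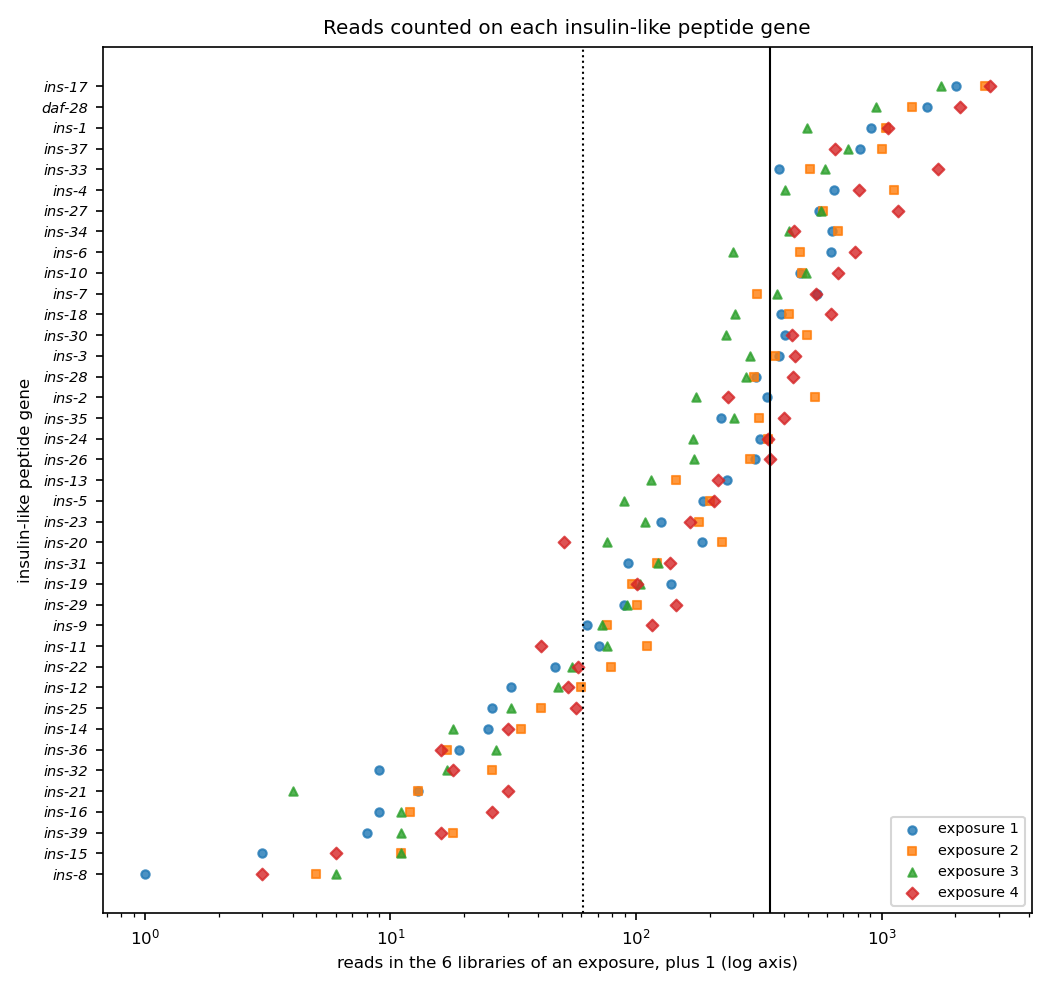
Reads counted on each of the 39 insulin-like peptide genes, summed over the 6 libraries of an exposure and plus 1 (horizontal log axis), with 1 symbol per exposure. The solid line marks the minimum of 350 reads for a test and the dotted line the lower minimum of 60, and 10 genes lie left of the dotted line in every exposure.

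Per kilobase of merged exons, the scale on which genes can be compared, *ins-17* had the highest level, with a mean of 18.9 CPM per kilobase over the 12 normoxia libraries (range 13.9 to 26.5). It was followed by *ins-27* (11.1, range 5.02 to 19.9), *ins-34* (8.0, range 3.44 to 13), *ins-33* (7.72, range 1.38 to 19.8), *daf-28* (6.74, range 4.41 to 9.65) and *ins-10* (5.78, range 4.74 to 7.14). The ranges of all 6 overlap those of their neighbours in this order. The lowest level was that of *ins-8*, at 0.0506 CPM per kilobase. Summed over the 39 members, insulin-like peptide genes took between 34.6 and 106 CPM of a library.

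All members are annotated as protein coding, with 10 on chromosome I, 15 on II, 5 on III, 4 on IV, 3 on V and 2 on X. Exon bases were shared with another gene by 5 members, and the sources used here do not state whether reads were counted by strand. Of the members tested, *ins-34* shares 82 exon bases (16.2%) with *nkcc-1* on the opposite strand, *ins-10* 74 (18.9%) with *vps-39* on the opposite strand, and *ins-37* 171 with *F08G2.9* and 192 with *R05D7.8*. The latter pair had at most 10 reads each in any exposure, against at least 645 for *ins-37*. The log2 fold changes of *nkcc-1* were 0.15, 0.01, 0.26 and -0.07 in exposures 1 to 4. *nkcc-1* had 28341 to 36202 reads in an exposure, against 418 to 666 for *ins-34*. *vps-39* had 28863 to 41290 reads, against 464 to 667 for *ins-10*, and was called lower in exposure 2 (-0.62, edgeR adjusted p = 2.73e-06). Whether the counts of *ins-34* and *ins-10* hold reads of these genes was not tested.

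More members rose than fell after hypoxia in exposures 2 and 4, and few members were called in exposures 1 and 3. In exposure 1, 14 members were tested, of which *ins-37* rose and *ins-34* fell. Over all genes tested there, 13.3% were called higher and 7.40% lower. In exposure 2, 7 of 14 rose (*daf-28*, *ins-4*, *ins-6*, *ins-27*, *ins-30*, *ins-33* and *ins-37*, beside 37.2% of all genes tested) and *ins-2* and *ins-34* fell (2 of 14, beside 36.3%). Exposure 3 had 10 members tested, of which *ins-33* and *ins-34* fell (beside 17.7% of all genes called lower) and 0 were called higher by edgeR (beside 12.4%). DESeq2 also called 0 higher there, and 1 member, *ins-7*, was higher at an unadjusted p under 0.05. In exposure 4, 9 of 16 rose (*daf-28*, *ins-1*, *ins-3*, *ins-4*, *ins-6*, *ins-7*, *ins-17*, *ins-30* and *ins-37*, beside 27.1% of all genes). The edgeR test called 0 members lower in exposure 4, beside 23.0% of all genes, with 1 at an unadjusted p under 0.05 (*ins-35*) and 1 called by DESeq2 (*ins-33*).

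The median log2 fold change of the members tested was 0.60, 0.58, 0.22 and 0.60 in exposures 1 to 4, beside -0.02, -0.01, 0.03 and 0 over all genes tested. Of these members, 12 of 14, 11 of 14, 6 of 10 and 11 of 16 had a positive value. All 3 hypoxia libraries lay above all 3 normoxia libraries for 3 members in exposure 1 (20.0% of all genes), 6 in exposure 2 (34.4%), 1 in exposure 3 (23.9%) and 10 in exposure 4 (33.8%). They lay below for 1 member (20.8% of all genes), 2 (44.0%), 3 (23.4%) and 0 (25.3%) in the same order. Replicates varied most in exposure 1, where the biological coefficient of variation was 0.235, against 0.101, 0.16 and 0.13 in exposures 2 to 4, and an effect of equal size was hardest to call there.

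**Figure D2:**
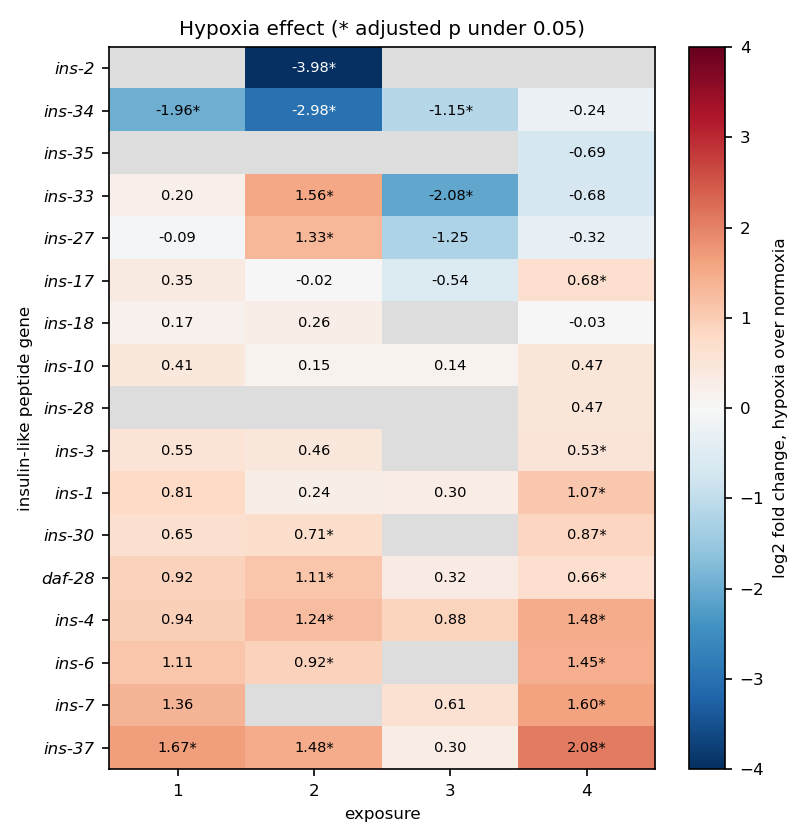
Log2 fold change of hypoxia over normoxia (color and number) for the 17 members tested in at least 1 exposure (rows), by exposure (columns). Grey cells had under 350 reads, stars mark an adjusted p under 0.05 by edgeR, and rows run from members lower in hypoxia at the top to *ins-37*, higher by 1.67, 1.48, 0.30 and 2.08, at the bottom.

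Peptides known as agonists of DAF-2 were 4 of the 7 members that rose in exposure 2 and 5 of the 9 in exposure 4, and 5 of the 14 and 7 of the 16 members tested there. Of 7 genes listed as agonists (*daf-28*, *ins-3*, *ins-4*, *ins-6*, *ins-7*, *ins-33* and *ins-35*), 0 of 6 tested were called in exposure 1 by edgeR, 4 of 5 rose in exposure 2 (beside 37.2% of all genes), 1 of 4 fell in exposure 3 (beside 17.7%) and 5 of 7 rose in exposure 4 (beside 27.1%). The 0 in exposure 1 stands beside 1 agonist, *ins-7*, called there by DESeq2, and 2 at an unadjusted p under 0.05. In exposure 4 DESeq2 called 4 agonists higher and 1, *ins-33*, lower, and 1, *ins-35*, was lower at an unadjusted p under 0.05. The edgeR call of *ins-3* there was lost in 9 of 14 alternatives. This list was chosen with earlier results of these data known. The median log2 fold change of the agonists tested was 0.93, 1.11, 0.47 and 0.66 in exposures 1 to 4. Their summed level was 13.4 to 14.1 CPM in normoxia and 24.1 to 29.6 in hypoxia in exposure 2, and 18.5 to 26.5 against 33.2 to 35.4 in exposure 4. Groups overlapped in exposure 1 (14.2 to 17.2 against 11.2 to 42.4) and in exposure 3 (13 to 18.2 against 8.80 to 24.1).

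The gene *daf-28* (WBGene00000920, chromosome V, 19815133 to 19816454) encodes an agonist made in sensory neurons that holds larvae out of dauer. In exposure 2 it had 3.97, 3.65 and 4.68 CPM in normoxia and 8.90, 7.15 and 8.71 in hypoxia. All hypoxia libraries lay above all normoxia libraries, with a log2 fold change of 1.11 ± 0.15 (SE, edgeR adjusted p = 8.3e-05). In exposure 4 the values were 5.96, 7.39 and 7.34 in normoxia and 11.8, 11 and 10.8 in hypoxia. The groups again did not overlap, with a log2 fold change of 0.66 ± 0.12 (edgeR adjusted p = 0.00241), although in one fit of all 24 libraries this call was lost (adjusted p 4.17e-05 to 0.203 over the alternatives). In exposures 1 and 3 the hypoxia libraries were scattered, from 3.61 to 16.0 CPM and from 2.27 to 8.91, on both sides of normoxia at 4.56 to 6.95 and 3.38 to 5.76, and the log2 fold changes of 0.92 ± 0.51 and 0.32 ± 0.46 did not pass the test.

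*ins-4* (WBGene00002087, chromosome II, 5996366 to 5997008) and *ins-6* (WBGene00002089, chromosome II, 6000436 to 6001009) are neighbours that also encode agonists acting against dauer, *ins-6* chiefly in the exit from it. In exposure 2 *ins-4* had 2.38, 3.52 and 3.88 CPM in normoxia and 7.23, 7.47 and 6.82 in hypoxia, a log2 fold change of 1.24 ± 0.18 (edgeR adjusted p = 0.000126). Exposure 4 gave 2.19, 1.91 and 1.58 in normoxia and 6.22, 4.45 and 5.62 in hypoxia (1.48 ± 0.19, adjusted p = 0.000407). Groups did not overlap in either. For *ins-6* in exposure 4, normoxia had 1.56, 1.97 and 1.95 CPM and hypoxia 5.0, 5.0 and 5.39, a log2 fold change of 1.45 ± 0.15 (edgeR adjusted p = 0.000148) with the 3 hypoxia libraries close together. In exposure 2 it had 1.92, 0.777 and 1.97 against 2.94, 1.90 and 3.44, where the lowest hypoxia library lay within normoxia. That rise (0.92 ± 0.34, edgeR adjusted p = 0.0297) was lost without normoxia replicate 2, hypoxia replicate 1 or hypoxia replicate 3, with adjusted p 0.000432 to 0.112 over the alternatives. In exposure 1 hypoxia libraries ran from 0.787 to 6.41 CPM for *ins-4* and from 1.97 to 5.85 for *ins-6*, and neither was called (log2 fold changes 0.94 ± 0.77 and 1.11 ± 0.45). *ins-4* was not called in exposure 3 either (0.88 ± 0.41), and *ins-6* had 247 reads there and was not tested.

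*ins-7* (WBGene00002090, chromosome IV, 9682011 to 9682845) encodes an agonist of neurons and intestine whose gene is itself repressed by DAF-16. In exposure 4 its normoxia libraries had 1.31, 1.12 and 1.13 CPM and its hypoxia libraries 4.06, 4.08 and 2.98, a log2 fold change of 1.60 ± 0.19 (edgeR adjusted p = 0.000292), the second largest rise in that exposure among members with 350 reads. In exposure 1 the groups did not overlap either, at 1.20, 1.71 and 1.88 against 4.10, 2.15 and 5.82, and the log2 fold change of 1.36 ± 0.40 just missed the test (edgeR adjusted p = 0.0561, 0.0012 to 0.171 over the alternatives). Exposure 3 had 1.61, 1.47 and 1.5 against 1.62, 2.70 and 2.69 (0.61 ± 0.26, adjusted p = 0.113), with hypoxia just above normoxia in its lowest library. Its 310 reads in exposure 2 were under the minimum.

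*ins-33* (WBGene00002116, chromosome I, 13637845 to 13639311), known with *ins-3* to promote proliferation of the larval germ line, was the single member with 350 reads that the main edgeR test called in both directions. In exposure 2 it had 1.36, 1.45 and 0.998 CPM in normoxia and 3.50, 2.89 and 4.05 in hypoxia, a rise of 1.56 ± 0.23 on the log2 scale (edgeR adjusted p = 0.000112). In exposure 3 it had 3.96, 6.25 and 3.88 in normoxia and 0.619, 0.549 and 2.01 in hypoxia, and the log2 fold change was -2.08 ± 0.48 (edgeR adjusted p = 0.0134). Groups did not overlap in either exposure, and the fall was lost without hypoxia replicate 2 (adjusted p 1.32e-05 to 0.0583 over the alternatives). In exposure 4 normoxia had 4.45, 10.2 and 10.3 CPM and hypoxia 5.19, 4.65 and 6.18 (-0.68 ± 0.30, adjusted p = 0.0901), so that 1 normoxia library lay below all hypoxia libraries. Exposure 1 had 3.19, 0.719 and 1.55 against 2.38, 0.680 and 3.12, and its log2 fold change had a larger SE there than in the other exposures (0.20 ± 0.68). *ins-3* rose in exposure 4 (1.54 ± 0.0926 CPM in normoxia, 2.28 ± 0.326 in hypoxia, log2 fold change 0.53 ± 0.18, edgeR adjusted p = 0.0349), but 9 of 14 alternatives lost that call, with adjusted p 0.0281 to 0.164. *ins-35* was tested in exposure 4 alone and had 1.96 ± 0.518 CPM in normoxia and 1.25 ± 0.241 in hypoxia (-0.69 ± 0.26, adjusted p = 0.0531).

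Of the 3 genes listed as antagonists, 2 rose in exposure 4 (beside 27.1% of all genes) and none of those tested was called by edgeR in exposures 1, 2 or 3, at an unadjusted p under 0.05 or by DESeq2. *ins-1* (WBGene00002084, chromosome IV, 10436701 to 10438412), a neuronal antagonist and the peptide closest to human insulin, had 2.77, 2.97 and 3.14 CPM in normoxia and 5.31, 6.20 and 7.64 in hypoxia in exposure 4. The groups did not overlap and the log2 fold change was 1.07 ± 0.16 (edgeR adjusted p = 0.000945). Its other values were 0.81 ± 0.41, 0.24 ± 0.20 and 0.30 ± 0.33 in exposures 1 to 3, where hypoxia libraries had 2.68 to 8.40, 3.97 to 6.50 and 1.58 to 3.90 CPM and overlapped normoxia at 3.16 to 3.82, 4.12 to 5.53 and 1.98 to 2.60.

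*ins-17* (WBGene00002100, chromosome III, 4476918 to 4477572), placed with the antagonists, rose in exposure 4, from 10, 9.49 and 7.74 CPM in normoxia to 15.6, 14.1 and 15.1 in hypoxia (log2 fold change 0.68 ± 0.12, edgeR adjusted p = 0.0022). In exposure 3 the order of the means was opposite, at 11.6, 7.96 and 11.4 against 5.81, 6.03 and 9.39, with overlapping groups (-0.54 ± 0.24, adjusted p = 0.119). Exposure 1 gave 9.28 ± 0.995 CPM in normoxia and 11.7 ± 3.89 in hypoxia, and exposure 2 gave 13.3 ± 2.14 and 12.2 ± 0.485. Neither was called. *ins-18* (WBGene00002101, chromosome I, 8147427 to 8149651), an antagonist made in neurons and intestine, was not called in any of the 3 exposures where it was tested, with log2 fold changes of 0.17 ± 0.50, 0.26 ± 0.23 and -0.03 ± 0.19 in exposures 1, 2 and 4. In exposure 4 it had 2.61 ± 0.375 CPM in normoxia and 2.62 ± 0.489 in hypoxia.

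**Figure D3:**
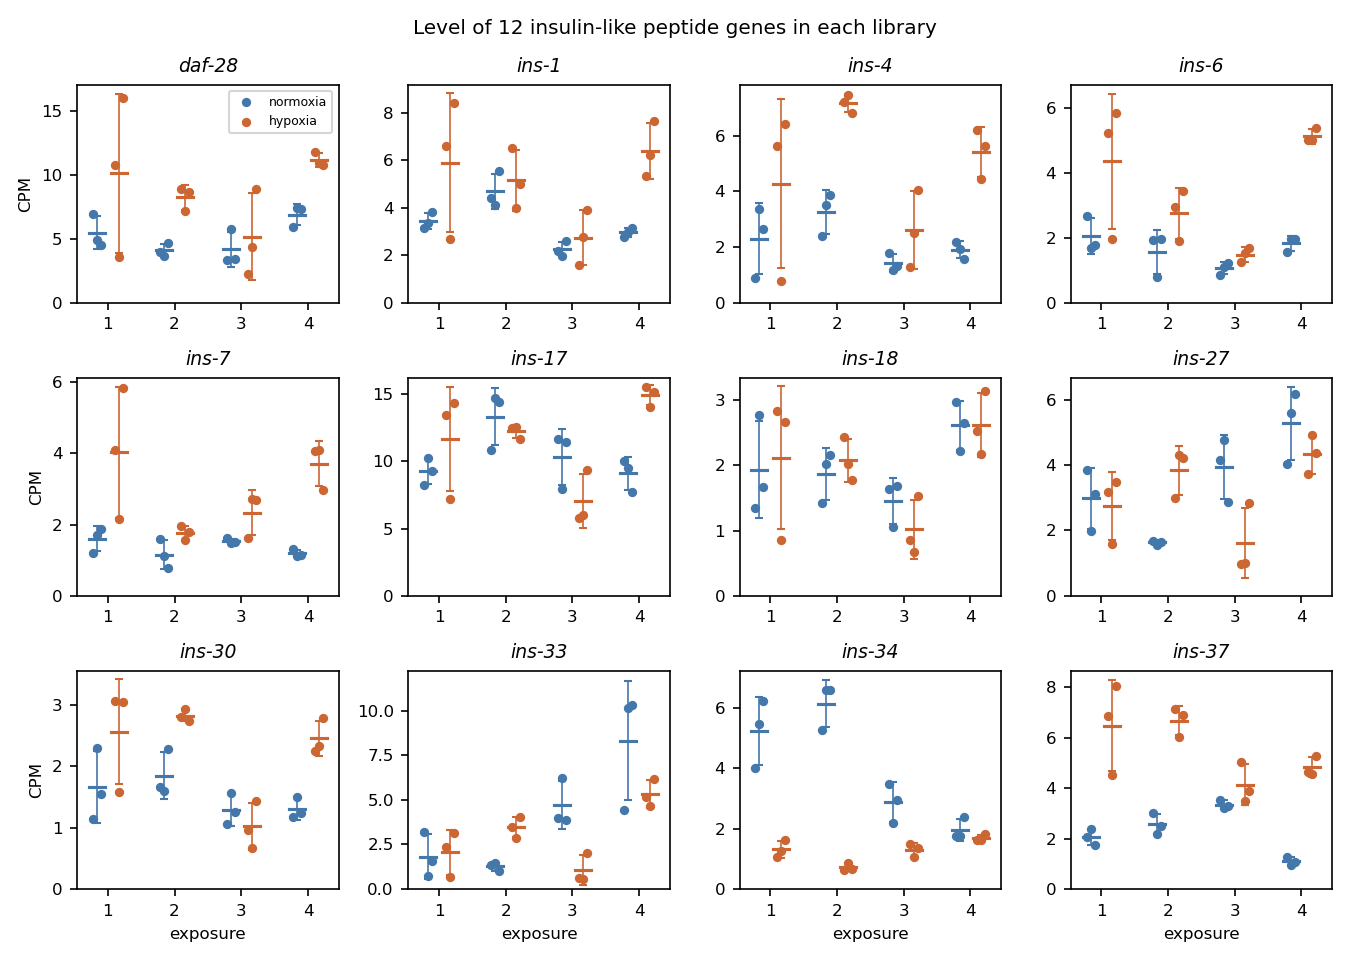
CPM of 12 members in each library (points), with the mean (short bar) and SD (whisker) of the 3 libraries of a group, by exposure (horizontal axis) and condition (color). In exposures 2 and 4 the hypoxia libraries of *daf-28*, *ins-4* and *ins-37* all lie above normoxia, whereas those of *ins-34* lie below in exposures 1, 2 and 3.

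The member most often called higher was *ins-37* (WBGene00002120, chromosome II, 13835101 to 13836107), the single one of the 9 members tested in all 4 exposures that was called higher in 3 of them (14.3% of all genes tested in all 4 were called higher in 3 or more). In exposure 1 it had 2.08, 2.4 and 1.73 CPM in normoxia and 6.87, 4.51 and 8.06 in hypoxia (log2 fold change 1.67 ± 0.28, edgeR adjusted p = 0.00727). Exposure 2 had 3.01, 2.20 and 2.51 against 7.13, 6.01 and 6.91 (1.48 ± 0.17, adjusted p = 2.11e-05). Exposure 4 had 1.29, 0.955 and 1.09 against 4.63, 4.57 and 5.28, the largest rise among members with 350 reads (2.08 ± 0.17, adjusted p = 4.67e-05). In none of these did the groups overlap. In exposure 3 the values were 3.55, 3.21 and 3.30 against 5.05, 3.50 and 3.88, where 1 hypoxia library lay within normoxia and the log2 fold change of 0.30 ± 0.20 did not pass the test (edgeR adjusted p = 0.288).

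*ins-34* (WBGene00002117, chromosome IV, 14106574 to 14107737) fell in the first 3 exposures, and its normoxia level was lower in exposures 3 and 4 than in exposures 1 and 2. In exposure 1 it had 4.00, 5.48 and 6.23 CPM in normoxia and 1.07, 1.25 and 1.62 in hypoxia (log2 fold change -1.96 ± 0.27, edgeR adjusted p = 0.00277). Exposure 2 had 5.26, 6.59 and 6.59 against 0.632, 0.876 and 0.670 (-2.98 ± 0.21, adjusted p = 6.36e-07), a level 7.90-fold lower in hypoxia. In exposure 3 the values were 3.49, 2.19 and 2.97 against 1.48, 1.05 and 1.36 (-1.15 ± 0.26, edgeR adjusted p = 0.0126), a call lost without normoxia replicate 1 (adjusted p 0.000446 to 0.0573 over the alternatives). The groups did not overlap in any of these. They met in exposure 4, at 1.75, 1.74 and 2.37 against 1.63, 1.64 and 1.83 (-0.24 ± 0.19, adjusted p = 0.313). Hypoxia libraries stayed between 0.632 and 1.83 CPM in all 4 exposures, whereas normoxia means were 5.24, 6.15, 2.88 and 1.96 CPM.

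*ins-27* (WBGene00002110, chromosome I, 14027236 to 14027588) and *ins-30* (WBGene00002113, chromosome I, 14034954 to 14036057) lie in 1 group of peptide genes. *ins-27* rose in exposure 2, from 1.69, 1.55 and 1.65 CPM to 2.98, 4.29 and 4.23 (log2 fold change 1.33 ± 0.21, edgeR adjusted p = 0.000192). In exposure 3 its hypoxia libraries lay below normoxia, at 0.963, 1.01 and 2.84 against 4.16, 4.77 and 2.88, and the log2 fold change of -1.25 ± 0.43 missed the test (edgeR adjusted p = 0.0599, 0.00394 to 0.186 over the alternatives). The third hypoxia library there was close to normoxia, and without it the fall passed the test. The fall also passed with DESeq2, without any minimum and in one fit of all 24 libraries. Values in exposure 1 (-0.09 ± 0.39) and exposure 4 (-0.32 ± 0.19) were not called. *ins-30* rose in exposure 2, from 1.66, 1.59 and 2.28 CPM to 2.80, 2.92 and 2.74 (0.71 ± 0.20, edgeR adjusted p = 0.00826), and in exposure 4, from 1.17, 1.5 and 1.24 to 2.25, 2.33 and 2.78 (0.87 ± 0.18, adjusted p = 0.00494). Its groups did not overlap in either. In exposure 1 *ins-30* was not called (0.65 ± 0.38, edgeR adjusted p = 0.262), and with 232 reads in exposure 3 it was not tested there.

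Among members with 350 reads, the largest fall was that of *ins-2* (WBGene00002085, chromosome II, 5988524 to 5989426) in exposure 2, the single exposure where it reached that minimum. Normoxia had 7.05, 3.68 and 5.02 CPM and hypoxia 0.452, 0.175 and 0.262, a level 15.8-fold lower in hypoxia (log2 fold change -3.98 ± 0.36, edgeR adjusted p = 3.74e-06). With the minimum lowered to 60 reads it also fell in exposure 1 (-1.39 ± 0.40, adjusted p = 0.0457) and in exposure 3 (-4.15 ± 0.54, adjusted p = 0.00104, 166 reads in normoxia and 8 in hypoxia), and was not called in exposure 4 (121 and 114 reads). *ins-10* had log2 fold changes of 0.41 ± 0.21, 0.15 ± 0.19, 0.14 ± 0.26 and 0.47 ± 0.21, none of them called, although its 3 hypoxia libraries lay above normoxia in exposure 1. *ins-28*, tested in exposure 4 alone, had 1.56 ± 0.291 CPM in normoxia and 2.21 ± 0.115 in hypoxia (0.47 ± 0.19, adjusted p = 0.0689), with groups that did not overlap.

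Whether the hypoxia effect differed among the exposures was tested for the 9 members with 350 reads in every exposure, by an F test of 3 contrasts in one edgeR fit of all 24 libraries. The effect differed for 5 of 9 members (55.6%), beside 68.2% of all 12517 genes tested, so a difference was no more frequent among the members than among genes in general. They were *ins-34* (adjusted p = 3.73e-06), *ins-37* (adjusted p = 0.000153), *ins-27* (adjusted p = 0.00293), *ins-33* (adjusted p = 0.00312) and *ins-17* (adjusted p = 0.00856). For *ins-34* the fall was deepest in exposure 2 and absent from the calls of exposure 4, for *ins-37* the rise was smallest in exposure 3, and for *ins-27* and *ins-33* the effect was positive in exposure 2 and negative in exposure 3. The effects of *daf-28* (adjusted p = 0.692), *ins-4* (adjusted p = 0.814), *ins-1* (adjusted p = 0.178) and *ins-10* (adjusted p = 0.401) were not found to differ, so their calls in some exposures and not in others do not show a difference. All exposures share a single estimate of replicate spread in that fit, and the replicates of exposure 1 varied more than those of the others.

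**Figure D4:**
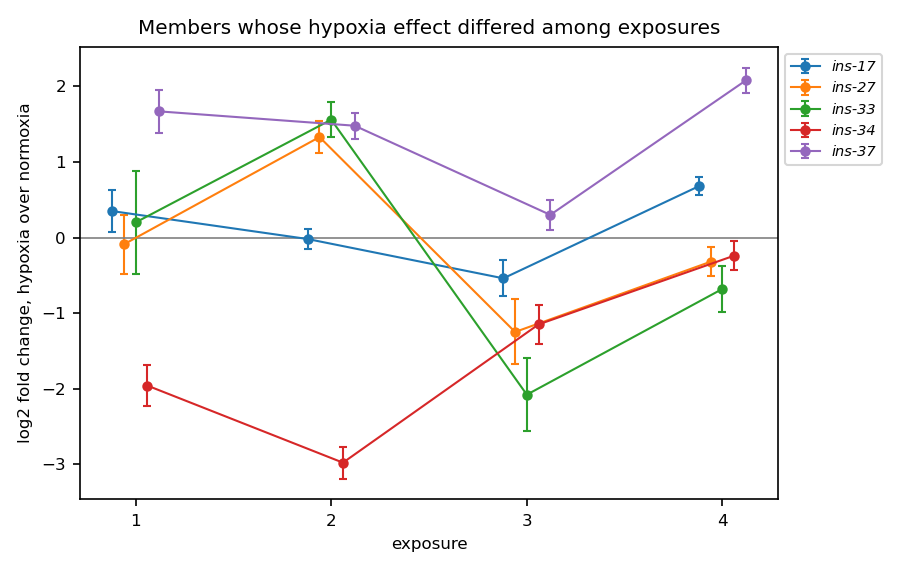
Log2 fold change of hypoxia over normoxia (vertical axis, points with SE as whiskers) by exposure for the 5 members whose effect differed among exposures. The lines join the values of 1 gene and do not stand for a lineage measured over time. *ins-34* runs from -1.96 and -2.98 to -0.24, and *ins-33* from 1.56 in exposure 2 to -2.08 in exposure 3.

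Single libraries stood apart in the exposures with few calls. Hypoxia replicate 2 of exposure 1 had the lowest value of its group for 13 of the 14 members tested, beside 45.9% of all genes, and its members summed to 41.9 CPM against 90.9 and 106 in replicates 1 and 3. Normoxia libraries of that exposure summed to 52.4 to 58.4 CPM. Without this library 6 members were called higher in place of 1, with *daf-28*, *ins-1*, *ins-6*, *ins-7* and *ins-17* beside *ins-37*. The share of all genes called higher in that fit is not given here, so the 6 stand without a background. The same library had 55600 CPM of yolk protein genes against 23000 and 18400 in the other hypoxia libraries, 5580 CPM of 7 oocyte and eggshell genes against 3630 and 3290, and 134 CPM of 9 molting genes against 321 and 345. In exposure 3, hypoxia replicate 3 had the highest value for 7 of 10 members (37.7% of all genes) and a sum of 60.3 CPM against 34.6 and 40.7, and replicate 1 had the lowest for 7. Without replicate 1, *ins-4* and *ins-7* were called higher in exposure 3, and without replicate 3 the members called lower numbered 4 in place of 2. For these fits too the shares of all genes are not given. The part of worm stage in these values was not tested.

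**Figure D5:**
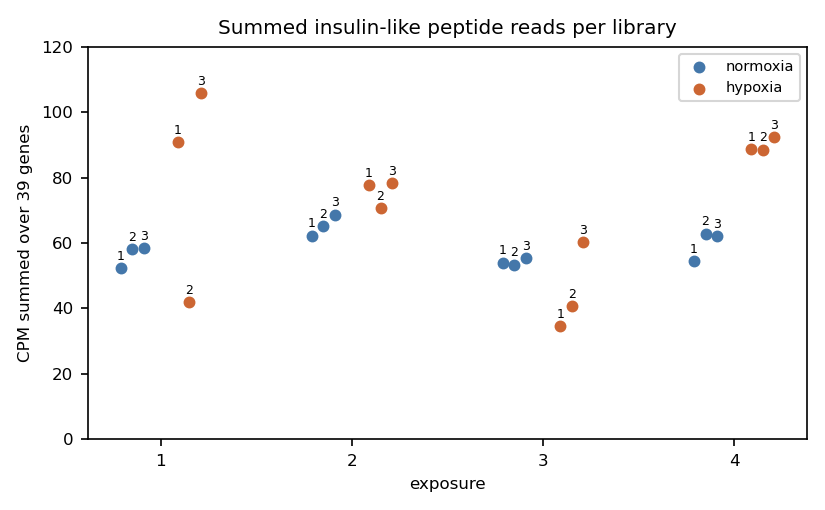
CPM summed over the 39 insulin-like peptide genes in each of the 24 libraries, by exposure and condition, with the replicate number above each point. Hypoxia replicate 2 of exposure 1 lies at 41.9, below all libraries of its exposure, and the 3 hypoxia libraries of exposure 4 lie at 88.6 to 92.5, above normoxia at 54.5 to 62.9.

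The level without hypoxia also moved between the generations. Among the 12 members with at least 700 reads over the 12 normoxia libraries, 7 differed between the 4 normoxia groups (58.3%, beside 57.9% of all genes tested). They were *ins-37* (edgeR adjusted p = 0.000395), *ins-2* (0.000438), *ins-34* (0.000477), *ins-33* (0.00178), *ins-27* (0.00182), *ins-1* (0.00203) and *daf-28* (0.0301). The call of *daf-28* was lost in 6 of 18 alternatives (adjusted p 0.0052 to 0.0962), with the replicate block and without normoxia replicate 1 or 2 of exposure 2, 1 of exposure 3, or 2 or 3 of exposure 4. For *ins-33* the normoxia means were 1.82, 1.27, 4.70 and 8.31 CPM in exposures 1 to 4, and for *ins-2* they were 2.57, 5.25, 1.63 and 0.880 CPM. *ins-10* had the highest adjusted p of the 12, with normoxia means of 2.12, 2.22, 2.35 and 2.37 CPM (adjusted p = 0.699). Of the 5 members whose hypoxia effect differed among exposures, 4 (*ins-27*, *ins-33*, *ins-34* and *ins-37*) also differed in their level without hypoxia. So did *daf-28* and *ins-1*, whose effect was not found to differ. The same normoxia libraries enter both tests, so the calls are not independent. The share of all genes called in both is not given here.

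Lowering the minimum to 60 reads brought 28, 29, 28 and 26 members into the tests of exposures 1 to 4. Of these, 4, 13, 1 and 12 were called higher and 2, 4, 5 and 0 lower, beside 13.0, 34.9, 10.3 and 24.6% of all genes called higher and 7.45, 32.5, 17.6 and 20.1% called lower. No member was called lower in exposure 4 by edgeR at that minimum. Without any minimum 2 were, and the share of all genes in that fit is not given here. Several of the added calls rested on few reads. *ins-19* had 93 reads in normoxia and 2 in hypoxia in exposure 2 (edgeR adjusted p = 0.000204) and 74 and 29 in exposure 3 (adjusted p = 0.0299), and was called lower in both. *ins-23* fell in exposure 2, with 151 and 29 reads (log2 fold change -2.49 ± 0.33, adjusted p = 3.67e-05). *ins-20* rose in exposure 2 (46 and 177 reads, 1.82 ± 0.33, edgeR adjusted p = 0.000444) and in exposure 3 (11 and 64 reads, 2.67 ± 0.54, adjusted p = 0.00805). *ins-9* turned from higher in exposure 2 (9 and 66 reads) to lower in exposure 3 (55 and 17 reads), the pattern that *ins-33* had above the main minimum. *ins-35* rose in exposure 2 (73 and 244 reads, 1.60 ± 0.26, edgeR adjusted p = 0.000211).

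*ins-13* was called higher in exposures 1 and 4 at the lower minimum (19 and 214 reads, and 42 and 172 reads), but 28.2% of its exon bases lie in exons of *acdh-2* on the same strand. The log2 fold changes of *acdh-2*, an acyl-CoA dehydrogenase gene, were 3.09, 0.60, 0.09 and 2.33 in exposures 1 to 4, and those of *ins-13* 3.44, 0.72, 0.18 and 2.35, and reads of the pair were not told apart here. Among the members under both minimums, *ins-12* was chosen for mention after its values were seen. It had 2 reads in normoxia and 28 in hypoxia in exposure 1, 1 and 58 in exposure 2, 12 and 35 in exposure 3, and 18 and 34 in exposure 4. In each exposure every hypoxia library lay above every normoxia library. In exposure 4 they nearly met, at 0.25 CPM in the lowest hypoxia library and 0.249 in the highest normoxia library. Of all genes that reached the main minimum, 20.0, 34.4, 23.9 and 33.8% were separated in this direction in exposures 1 to 4. The share among genes with as few reads is not given here. In the edgeR fits without a minimum, *ins-12* was called higher in exposure 1 (adjusted p = 0.0465) and exposure 2 (8.05e-08). It was not called in exposures 3 (0.115) and 4 (0.191). Of the other 9 members under 60 reads, 1 was called in these fits, *ins-15*, lower in exposure 2 (adjusted p = 0.0263).

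The genes downstream of the peptides were called in both directions, most of them lower in exposure 2. Of 13 genes from the receptor to FOXO, 0, 3, 2 and 3 were called higher in exposures 1 to 4 and 0, 7, 0 and 3 lower, beside the shares of all genes given above. None of the 13 was called in exposure 1 by DESeq2 or at an unadjusted p under 0.05, and in exposure 3 both gave 1 lower gene. In exposure 2 the 7 lower genes included *daf-2*, the receptor itself (323 ± 16.6 CPM in normoxia, 137 ± 3.97 in hypoxia, log2 fold change -1.13 ± 0.06, edgeR adjusted p = 7.31e-08), *age-1*, the catalytic subunit of PI3K (-0.55), and *daf-16* (-0.34). They were chosen for mention after their values were seen, and *daf-2* was not called in the other exposures (-0.09, -0.09 and -0.04). *akt-2*, an AKT kinase, rose in exposures 2, 3 and 4 (0.36 ± 0.08, 0.60 ± 0.19 and 0.64 ± 0.14, edgeR adjusted p = 0.0019, 0.0455 and 0.00573) and had 0.48 ± 0.20 in exposure 1 (adjusted p = 0.144).

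Of 11 genes of peptide processing and secretion, 1, 4, 2 and 7 were called higher in exposures 1 to 4, beside 13.3, 37.2, 12.4 and 27.1% of all genes. In exposures 1 to 3 the share called higher was near that of all genes. Called lower were 0, 0, 1 and 0 of the 11, beside 7.40, 36.3, 17.7 and 23.0% of all genes. At an unadjusted p under 0.05, 1, 1 and 0 were lower in exposures 1, 2 and 4, and DESeq2 called 1, 0 and 0. *ida-1*, a dense-core vesicle protein, rose in every exposure, by 1.27 ± 0.31, 1.05 ± 0.11, 0.51 ± 0.15 and 1.36 ± 0.07 on the log2 scale (edgeR adjusted p = 0.0302, 1.24e-05, 0.0386 and 7.87e-06). In exposure 4 it had 62.7, 51.8 and 55.6 CPM in normoxia and 151, 144 and 151 in hypoxia. *asna-1*, an ATPase that promotes insulin secretion, rose in exposures 2, 3 and 4 (0.53, 0.36 and 0.43) and had 0.55 ± 0.16 in exposure 1 (adjusted p = 0.0544). The 7 genes that rose in exposure 4 included *egl-3*, a proprotein convertase (0.74), *egl-21*, a carboxypeptidase (0.64), and *sbt-1*, a chaperone of the convertase (0.45).

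Lists of marker genes were read beside these values. Over all genes tested in exposures 1 to 4, 13.3, 37.2, 12.4 and 27.1% were called higher. The shares called lower were 7.40, 36.3, 17.7 and 23.0%, and the counts below stand beside these shares. Of 9 neuron genes, 0, 1, 1 and 1 were called higher and 1, 4, 7 and 2 lower in exposures 1 to 4. Their summed level was 278 to 326 CPM in normoxia and 272 to 344 in hypoxia in exposure 1, 336 to 396 and 334 to 356 in exposure 2, 291 to 310 and 275 to 319 in exposure 3, and 298 to 316 and 317 to 328 in exposure 4. That sum rests largely on 1 gene, *snb-1*, with group means of 155 to 197 CPM. In exposure 3 *snb-1* was the gene called higher (155 ± 8.56 CPM in normoxia, 195 ± 13.9 in hypoxia) while 7 were called lower. Of 7 intestine genes, 0, 4, 0 and 3 were called higher and 0, 3, 4 and 1 lower. Of 9 molting genes, 4, 5, 9 and 9 were called lower and 0, 3, 0 and 0 higher, with summed levels of 469 to 916 CPM in normoxia and 71.3 to 650 in hypoxia libraries. Sperm genes rose in exposures 1, 2 and 4 (7 of 7, 8 of 8 and 6 of 7 tested) and 0 of 6 were called in exposure 3 by edgeR or DESeq2, with 1 at an unadjusted p under 0.05. Of 6 yolk genes, 2, 3, 3 and 4 were called lower and 0, 3, 0 and 0 higher by edgeR (in exposure 3, 1 was higher at an unadjusted p under 0.05 and by DESeq2), and their sum was lower in every hypoxia library (18400 to 59400 CPM) than in normoxia of the same exposure (46700 to 101000 over all 4). Of 7 oocyte and eggshell genes, 2, 7, 2 and 5 were called lower and none higher by edgeR, with 4 higher in exposure 3 at an unadjusted p under 0.05 and 1 by DESeq2. Their sum was 4450 to 4910 CPM in normoxia and 2160 to 2780 in hypoxia in exposure 2 and 5820 to 6260 and 4830 to 4980 in exposure 4, and the groups overlapped in exposures 1 and 3. Of 8 early embryo genes, 2, 1, 1 and 1 had 350 reads in exposures 1 to 4 and all of these were called lower (medians -1.99, -1.81, -2.51 and -1.58), with sums of 5.04 to 12.1 CPM in normoxia and 1.31 to 4.94 in hypoxia. No library had a neuron, intestine, yolk, oocyte and eggshell, molting or sperm marker at 0, and at most 2 early embryo markers were at 0 in a library. The part of stage and of cell makeup in the values of the peptide genes was not tested.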

How the data were processed

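Whole-worm poly(A) RNA of 24 libraries was sequenced from directional libraries. The authors kept reads with a quality of 30 or above, trimmed them with CutAdapt 4.0, mapped them to the WS235 genome by bowtie2 and counted reads per gene by featureCounts, and the deposited values are whole-number counts without normalization. The strand setting and other versions are not given in the sources used here. The authors' own comparison tables, which hold log2 fold changes and p-values from DESeq2, were not used.

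Names, coordinates and exon lengths came from Ensembl 115 (WBcel235). Counts of all genes were fitted in R 4.3.3 with edgeR 4.0.16 (TMM, glmQLFit and glmQLFTest), separately for the 3 hypoxia and 3 normoxia libraries of each exposure, on genes with a sum of at least 350. Further fits tested all 24 libraries together and the 12 normoxia libraries (sum of at least 700). SE values were taken as the log2 fold change over the square root of F. A rank test of 3 against 3 libraries cannot give p under 0.1. Members called in 2 or more exposures or whose effect differed among exposures were described most fully, by library values, ranges or mean ± SD. So were *daf-28*, *ins-1*, *ins-4*, *ins-6*, *ins-7* and *ins-18*, with *ins-2* added after its values were seen. Pathway genes were named where called in 3 or more exposures, and *daf-2*, *age-1*, *daf-16*, *egl-3*, *egl-21* and *sbt-1* were added after their values were seen. The members, lists and tests were chosen with earlier results of these data known. The alternatives were DESeq2 1.42.0, upper-quartile normalization, minimums of 60 and of 1 read, no ribosomal RNA genes, the replicate number as a block, one fit of all libraries, a further minimum of 1 for the absolute log2 fold change, and each library left out. Replicates are described as biological. The 24 replicate pairs differed by more than counting noise (chi-square per gene 7.22 to 630), and all libraries were kept. The fits were tested on simulated data.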

Additional observations from a re-analysis of the deposited data

Results flagged for a closer look

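The size of the hypoxia effect differed between exposures for 5 members, by the test of the difference itself (edgeR, F test of 3 contrasts over all 24 libraries, adjusted over all genes tested). For *ins-34* the adjusted p was 3.73e-06, with log2 fold changes of -1.96, -2.98, -1.15 and -0.24 in exposures 1 to 4. For *ins-37* it was 0.000153, with values of 1.67, 1.48, 0.30 and 2.08. The value for *ins-27* was 0.00293 (log2 fold changes -0.09, 1.33, -1.25 and -0.32), and that for *ins-33* was 0.00312 (0.20, 1.56, -2.08 and -0.68). *ins-17* had an adjusted p of 0.00856 (0.35, -0.02, -0.54 and 0.68). Over the 30 alternatives of this test the adjusted p stayed under 0.05 for each, and the highest, for *ins-17*, was 0.0245. Such a difference was called for 68.2% of all genes tested.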

How the results depend on the processing

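No member reversed direction while called. Of the single-gene results under an alternative, 1181 stayed on the same side of the threshold, 26 lost a call and 35 gained one. Among the 1181, values that were not called changed sign 18 times, in 8 results (*daf-28* in exposure 3 ran from -0.40 to 0.68). Without any minimum, 5, 14, 1 and 12 members were called higher in exposures 1 to 4 and 3, 7, 4 and 2 lower. The shares of all genes called in those fits are not given here, so these counts stand without a background. With a minimum of 60 reads 4, 13, 1 and 12 members were called higher and 2, 4, 5 and 0 lower, beside the shares of all genes given above for that minimum. The difference in effect was called for 13 members without a minimum and for 12 with 60 reads, against 5 of 9 in the main fit. More members were tested in the wider fits. The shares of all genes called there are not given here, so the larger counts do not show a larger share of members. DESeq2 called 2 members higher in exposure 1 and 1 lower in exposure 4, and in exposure 3 it also called *ins-27* lower. One fit of all 24 libraries called 4 higher in exposure 1, and of all genes called there it gave 49.1% higher, against 64.2% in the exposure's own fit. Requiring a log2 fold change of at least 1 left 5 higher in exposure 4. No scaling moved the median log2 fold change of all genes by more than 0.05. With upper-quartile normalization, the share higher among all genes called was 33.7% in exposure 3, against 41.2% in the main fit. In exposure 4 it was 60.1%, against 54.1%. No call of a member changed under that normalization.

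With each library left out, members called higher numbered 1 to 6, 6 to 8, 0 to 2 and 8 to 11 in exposures 1 to 4 and lower 1 to 1, 2 to 2, 1 to 4 and 0 to 3. The 6 came without hypoxia replicate 2 of exposure 1, the 2 in exposure 3 without hypoxia replicate 1, and the 1 lower without normoxia replicate 1 or hypoxia replicate 2. The 4 lower came without hypoxia replicate 3, and the 3 in exposure 4 without normoxia replicate 1 (*ins-27*, *ins-33* and *ins-35*). The difference in effect was called for 5 to 6 members and that among normoxia groups for 6 to 9. The shares of all genes called with a library left out are not given here, and the cause was not tested.

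Deviations of same-numbered libraries from their group means correlated over 0.1 in 2 of 12 pairs (-0.31 to 0.31). Of the 12 normoxia libraries, 6 correlated best with their own number, including a tie at 0.08 in exposure 2. With 3 libraries in a group, these values cannot settle whether replicate numbers pair the libraries. With the replicate number as a block, 1, 7, 0 and 8 members were called higher and 1, 2, 2 and 0 lower, the effect differed for 5 and the normoxia groups for 6. The call of *ins-3* in exposure 4 and that of *daf-28* among normoxia groups were lost, and no other. Depth limits the rest: 22 members never reached 350 reads in an exposure.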

Other observations

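Of the 39 genes, 25 lie in 7 groups whose neighbours are at most 10000 bases apart, and neighbours did not always move alike. On chromosome II, *ins-2*, *ins-3*, *ins-4*, *ins-5*, *ins-6* and *ins-20* lie within 22798 bases (5988524 to 6011321 in WBcel235). In exposure 2, with the minimum at 60 reads, *ins-2* at one end of the group had a log2 fold change of -3.96 ± 0.35 (SE), while *ins-4*, *ins-5*, *ins-6* and *ins-20* had 1.26 ± 0.18, 1.17 ± 0.41, 0.94 ± 0.33 and 1.82 ± 0.33, and all 5 were called by edgeR. *ins-3*, which lies 672 bases from *ins-2*, had 0.47 ± 0.32 and was not called.

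On chromosome I, *ins-24* to *ins-30* lie within 25409 bases (14012369 to 14037777). In exposure 3 at the same minimum, the log2 fold changes of *ins-27*, *ins-24*, *ins-26* and *ins-28* were -1.25 ± 0.43, -0.89 ± 0.36, -0.62 ± 0.29 and -0.25 ± 0.31, that of *ins-30* was -0.30 ± 0.35 and that of *ins-29* was 0.53 ± 0.43. None of these passed the test. In exposure 4 *ins-30* and *ins-26* rose, and *ins-27*, *ins-24*, *ins-28* and *ins-29* were not called. *ins-25*, with 25 to 56 reads in an exposure, was under this minimum. Side by side, the genes of a group are values of neighbours only, and shared regulation was not tested.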
